A study of Mus musculus with 12 samples.

Results

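The comparison of Ts1Cje with euploid cerebellum at P15 (postnatal day 15) rests on 4 of the 12 arrays of the series. They are the 2 hybridisations of a pool of RNA from 3 Ts1Cje cerebella and the 2 hybridisations of a pool of RNA from 3 euploid cerebella. The arrays were chosen by their labels, and every probe set other than the 66 manufacturer's controls was a candidate, which gave 12422 probe sets. Of these, 7453 passed a filter on low signal and 4969 did not. The other 8 arrays cover pools of both genotypes at P0 and P30, each of 3 cerebella except the euploid P30 pool with 2. The labels used here name neither the strain nor the sex of the mice. Each genotype had 1 pool at P15, so the hybridisations are technical replicates, the animals' own spread was not measured, and differences at P15 carry no p-value.

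In Ts1Cje mice the distal end of chromosome 16 is present in an additional copy, joined to chromosome 12 by a translocation. The segment holds many of the genes whose human counterparts are in excess in Down syndrome, and the mice are used as a model of it. The postnatal mouse cerebellum grows mainly by division of granule cell progenitors in its outer layer, driven by Sonic hedgehog from Purkinje cells. By P15 this division is coming to an end, granule cells are settling in the inner layer, and Purkinje cells are extending their dendrites and receiving most of their synapses.

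Signals are MAS5 intensities, and differences are Ts1Cje minus euploid means of log2(signal + 4.6). With the pseudocount of 4.6, changes of dim probe sets come out smaller than they are. The median signal on the P15 arrays was 34.7 and 30.4 in Ts1Cje, against 32.2 and 30.9 in euploid cerebellum. Over the 7453 probe sets the log2 values correlated at r = 0.975 between the Ts1Cje hybridisations, at 0.970 between the euploid ones and at 0.958 to 0.974 across genotypes. The ratio of the 3′ to the 5′ Gapdh control, a sign of RNA integrity, was 0.879 and 0.877 on the Ts1Cje arrays, against 0.975 and 0.968 on the euploid arrays. Zic1, a zinc finger factor of granule cells, had 3684 and 4512 in Ts1Cje against 3716 and 5170 in euploid cerebellum, as a marker of the labelled tissue. The number of arrays limits the precision of every value.

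The Ts1Cje P15 pool stood apart from every other pool in a few transcripts. Xist, the non-coding RNA of the inactive X chromosome in females, had signals of 105.6 and 77.6 in the Ts1Cje P15 pool and of 3.8 and 1.4 in the euploid P15 pool. Its range on the other 8 arrays was 1.8 to 6.7. Dlx1, a homeobox factor of forebrain interneurons, had 77.5 and 64.9 in the Ts1Cje P15 pool and 0.5 and 0.9 in the euploid P15 pool, with 0.5 to 5.0 on the other 8 arrays. Both genes lie below the filter on mean signal, because they were near background on the other 10 arrays. Of all 8251 genes on the array, 105 (1.27%) had both Ts1Cje P15 signals above all other arrays. Among Y-linked genes, Kdm5d had 0.6 and 1.9 in Ts1Cje against 7.1 and 3.8 in euploid cerebellum, without overlap. Eif2s3y had 45.3 and 27.5 against 69.7 and 38.7, and Uty had 11.5 and 16.1 against 23.4 and 14.9, both with overlap. The probe sets of Sry were dim and overlapped, with differences of -0.14 and 0.22. Of the 4 sex-linked genes that passed the filter, 0 were called in either direction. Their differences were 0.18 for Ddx3x, 0.11 for Eif2s3x, -0.05 for Kdm6a and -0.50 for Eif2s3y, with a median of 0.03. The other measured probe set of Ddx3x was higher without overlap by 0.41, under 1.5-fold. The part of the sex of the animals and of other tissue in the results that follow was not tested, and with 1 pool per genotype no result can be given without this pool.

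**Figure D1:**
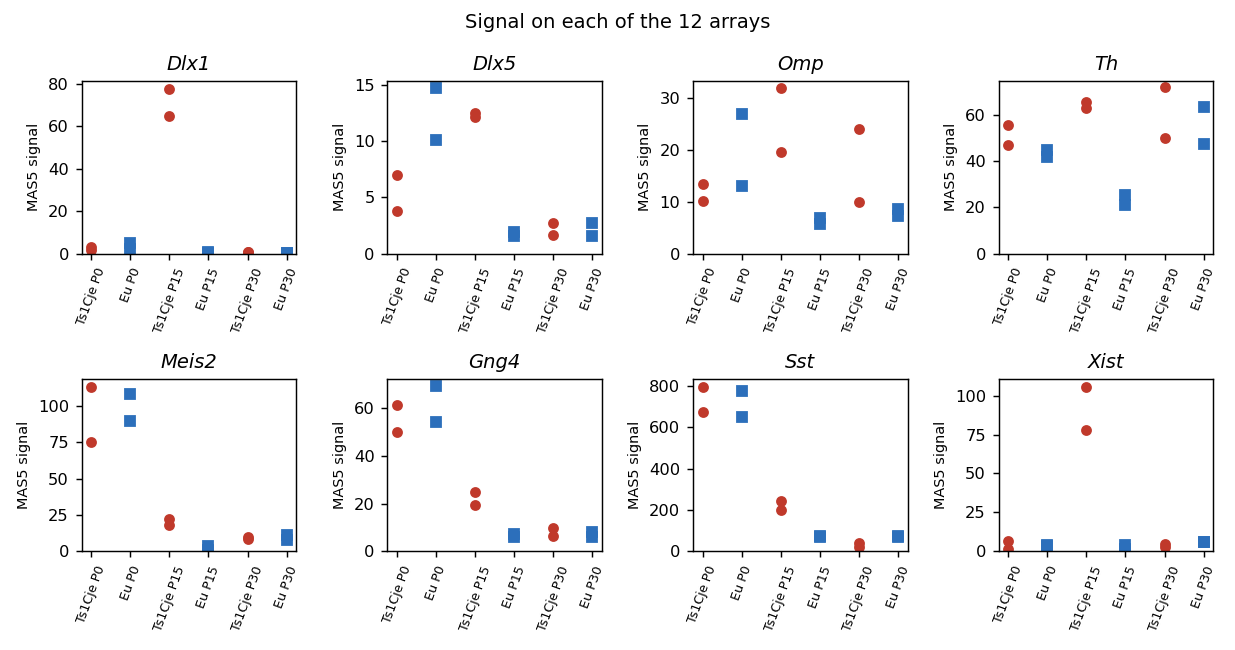
MAS5 signal (linear axis from 0) on each of the 12 arrays for 8 genes, with 2 points for the hybridisations of each pool, Ts1Cje as red circles and euploid (Eu) as blue squares at P0, P15 and P30. Dlx1 and Xist are high only in the Ts1Cje P15 pool, while Meis2, Gng4 and Sst are highest at P0 in both genotypes.

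A probe set was called higher or lower where the means differed at least 1.5-fold and the hybridisations of the genotypes did not overlap. By this rule 239 of 7453 probe sets (3.21%) were higher in Ts1Cje and 145 (1.95%) were lower. With each gene represented by its brightest probe set, 188 of 5670 genes (3.32%) were higher and 105 (1.85%) were lower. The median difference over all genes was 0.00, and 2866 genes (50.5%) had a positive one. Non-overlap alone, at any fold, held for 1209 genes (21.3%) in the higher and 1071 (18.9%) in the lower direction. These shares are the background for the counts among measured genes that follow. Calls were more frequent among dim genes: 4.20% of the 2689 genes with a mean signal under 100 were higher, against 2.80% of the 1106 genes with a mean signal of at least 300.

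The genes of the trisomic segment were higher in Ts1Cje as a group. Of 36 listed genes on the array, 23 passed the filter and 13 did not. Among the 23, 8 were called higher and 0 lower, beside 3.32% and 1.85% of all genes. A positive difference held for 22, beside 50.5% of all genes. At any fold, 20 were higher without overlap, beside 21.3% of all genes. The median difference of the 23 was 0.43, against 0.00 over all genes, and the 4 possible array pairs gave medians between 0.41 and 0.55. The median ratio of linear signals was 1.37 (range 0.974 to 2.02), where 3 gene copies over 2 would give 1.5. Over all 36 genes on the array, with no filter, 9 were higher and 0 lower (background 4.35% and 2.38%), with a median of 0.35.

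Several trisomic genes serve energy metabolism and membrane traffic. Atp5o, which encodes a stalk subunit of mitochondrial ATP synthase, had signals of 1272 and 1535 in Ts1Cje against 787 and 867 in euploid cerebellum, a difference of 0.76. Tmem50b, a membrane protein of the secretory pathway, had 560 and 606 against 348 and 366 (0.70). Vps26c, a subunit of an endosomal sorting complex, had 192 and 196 against 127 and 118 (0.65), and its other measured probe set differed by 0.35. On both probe sets of Vps26c, as for Atp5o and Tmem50b, the genotypes did not overlap. Cbr1, a carbonyl reductase, had 120.7 and 117.7 in Ts1Cje against 81.9 and 69.3 in euploid cerebellum (0.63). Itsn1, an endocytic scaffold, had 374.8 and 372.4 against 279.9 and 303.3 (0.35), higher without overlap but under 1.5-fold.

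Regulators of signalling and transcription in the segment varied more. Rcan1, an inhibitor of the phosphatase calcineurin, had signals of 193.9 and 173 in Ts1Cje against 115 and 94.4 in euploid cerebellum, a difference of 0.79. That difference was 0.55 at P0 and 0.18 at P30. Dyrk1a, a kinase often studied in Down syndrome, had 744.5 and 558.3 against 649.6 and 687.5, so the euploid signals fell between the Ts1Cje ones. Its difference was -0.05 at P15, the only negative one among the 23, against 0.29 at P0 and 0.55 at P30. A dimmer probe set of Dyrk1a was higher without overlap by 0.42, with 35.2 and 21.9 in Ts1Cje against 21.7 and 17.8 in euploid cerebellum, so its probe sets disagree. Ets2, a transcription factor, also overlapped, with 118.8 and 96.5 in Ts1Cje against 105 and 103 in euploid cerebellum (0.04).

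Chromatin, RNA and ubiquitin proteins of the segment gave differences of 0.42 to 0.84. Hmgn1, a nucleosome-binding protein, had signals of 1635 and 1901 in Ts1Cje against 1228 and 1417 in euploid cerebellum (0.42). Son, a splicing protein, had 710 and 744 against 544 and 473 (0.51), while its other measured probe set overlapped and differed by 0.07. Ttc3, a ubiquitin ligase, had 1044 and 1091 against 766.5 and 789.7 (0.45). On these probe sets none of the 3 overlapped between genotypes, and none reached 1.5-fold. Setd4, a protein methyltransferase, and Chaf1b, a subunit of chromatin assembly factor, were called higher by 0.84 and 0.71 but were dim. Setd4 had 22 and 23.3 in Ts1Cje against 15.5 and 6.9 in euploid cerebellum, and Chaf1b had 15.3 and 17.6 against 14.4 and 4.1.

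The segment also holds a cluster of receptors for interferons and interleukin 10. Ifngr2, part of the receptor for interferon gamma, was called higher, with signals of 113.5 and 78.9 in Ts1Cje against 56.5 and 54.1 in euploid cerebellum (0.73). Ifnar1 and Ifnar2, the chains of the type I interferon receptor, differed by 0.39 and 0.43, and Il10rb, a chain of the interleukin 10 receptor, by 0.28. All 4 receptor genes were higher without overlap, beside 21.3% of all genes, and 3 of the 4 did not reach 1.5-fold. The remaining measured genes differed by 0.16 to 0.57: Paxbp1 (0.16), Gart (0.23), Sh3bgr (0.32), Smim11 (0.32), C2cd2 (0.35) and Psmg1 (0.57), of which C2cd2 overlapped between genotypes.

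**Figure D2:**
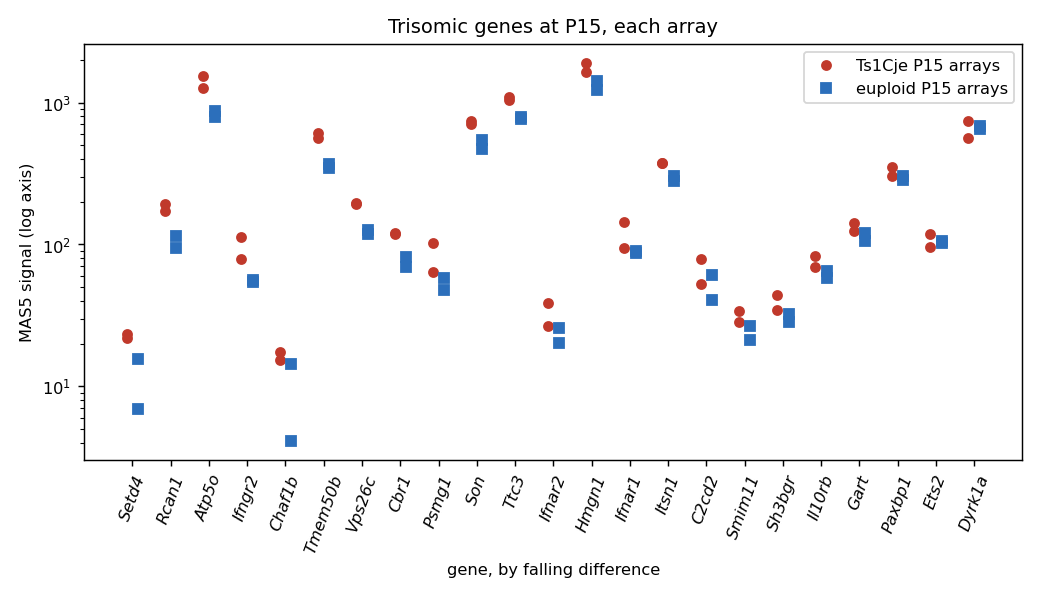
MAS5 signal (log axis) of the 23 measured trisomic genes on each P15 array, Ts1Cje as red circles and euploid as blue squares, ordered by falling log2 difference. The Ts1Cje points lie above the euploid points for 20 genes, and those of Dyrk1a, Ets2 and C2cd2 overlap with them.

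Outside the segment, the other 148 measured genes of chromosome 16 had a median difference of 0.00, with 7 called higher and 1 lower. Of the 12 measured genes of a list of neighbours in 2 copies, 1 was called higher and 1 lower, with a median of -0.05. Bach1, a haem-binding transcriptional repressor, was the higher one, with signals of 383.3 and 337.2 in Ts1Cje against 234.5 and 190.1 in euploid cerebellum (0.76). A dimmer probe set of Bach1 overlapped and differed by 0.06, so the call was lost on it. Nrip1, a nuclear receptor corepressor, was the lower one, with 149.8 and 134 against 214 and 232.2 (-0.64). App, the amyloid precursor gene, overlapped between genotypes and differed by -0.12. Sod1, superoxide dismutase at the edge of the segment, had 504.3 and 521.4 in Ts1Cje against 435.5 and 382.9 in euploid cerebellum (0.33). On chromosome 12, only Cdca7l of the genes listed near the translocation passed the filter. It had 48.8 and 41.1 in Ts1Cje against 14.1 and 22.1 in euploid cerebellum, a difference of 1.14, beside 1.005 at P0 and 0.65 at P30.

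**Figure D3:**
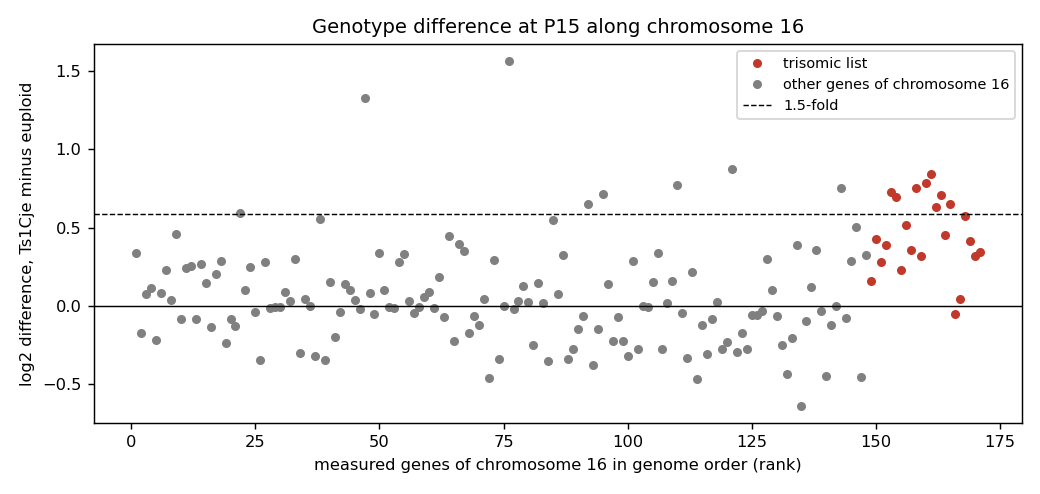
Log2 difference at P15 (Ts1Cje minus euploid) for the measured genes of chromosome 16 in genome order, trisomic genes in red and others in grey, with a dashed line at 1.5-fold. The trisomic genes at the distal end have a median of 0.43 and the others a median of 0.00.

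The 15 genes with the widest gap in the higher direction differed 2.38-fold to 5.22-fold. Cpne6, a calcium-dependent membrane-binding protein of neurons, had signals of 94.7 and 100.3 in Ts1Cje against 21.2 and 10.2 in euploid cerebellum, a difference of 2.38. Its differences at P0 and P30 were -0.19 and -0.28. Rab3b, a GTPase of regulated secretion, had 45.8 and 47.8 in Ts1Cje against 8 and 10.7 in euploid cerebellum (1.89). Several genes of this set act in peptide or transmitter signalling. Sst, the inhibitory neuropeptide somatostatin, had 199.8 and 245.7 in Ts1Cje against 70.8 and 73.1 in euploid cerebellum (1.56). Resp18, a protein of the neuroendocrine secretory pathway, had 215.3 and 209.6 against 72.9 and 101.1 (1.26). Th, the rate-limiting enzyme of catecholamine synthesis, had 63 and 65.8 against 21.1 and 25.5 (1.31). In each of these the Ts1Cje signals were at least double the euploid ones.

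Transcription factors and enzymes made up much of the rest. Shox2, a homeobox factor, had signals of 40.4 and 47.8 in Ts1Cje against 5.9 and 10.8 in euploid cerebellum (1.93). Meis2, another homeobox factor, had 22.4 and 18.1 against 1.2 and 3.6 (1.84), so its euploid signals lay below the pseudocount. Glul, the glutamine synthetase of astrocytes and Bergmann glia, had 556.9 and 573 against 219.9 and 196.1 (1.42). Its other measured probe set overlapped and differed by -0.12, so the probe sets of Glul disagree. Pus1, a pseudouridine synthase that modifies RNA, had 102.8 and 100.2 in Ts1Cje against 37.5 and 16 in euploid cerebellum (1.85). Marveld1 differed by 1.70, and Ada, the adenosine deaminase, by 1.46. Zap70, a kinase of T cell receptor signalling, differed by 1.70 on one probe set and overlapped between genotypes on another that passed the filter (0.46).

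Dim genes completed the set. Crabp1, a retinoic acid binding protein, had signals of 10.5 and 9.3 in Ts1Cje against 1.7 and 1.0 in euploid cerebellum (1.29). Slc6a4, the serotonin transporter, had 18.3 and 8.7 against 1.1 and 1.8 (1.53), and its other probe set was also higher, by 1.05. Gng4, a G protein gamma subunit, had 19.5 and 24.7 against 6.1 and 7.1 (1.25). Of the 15 higher genes, 2 had a positive difference at both P0 and P30.

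**Figure D4:**
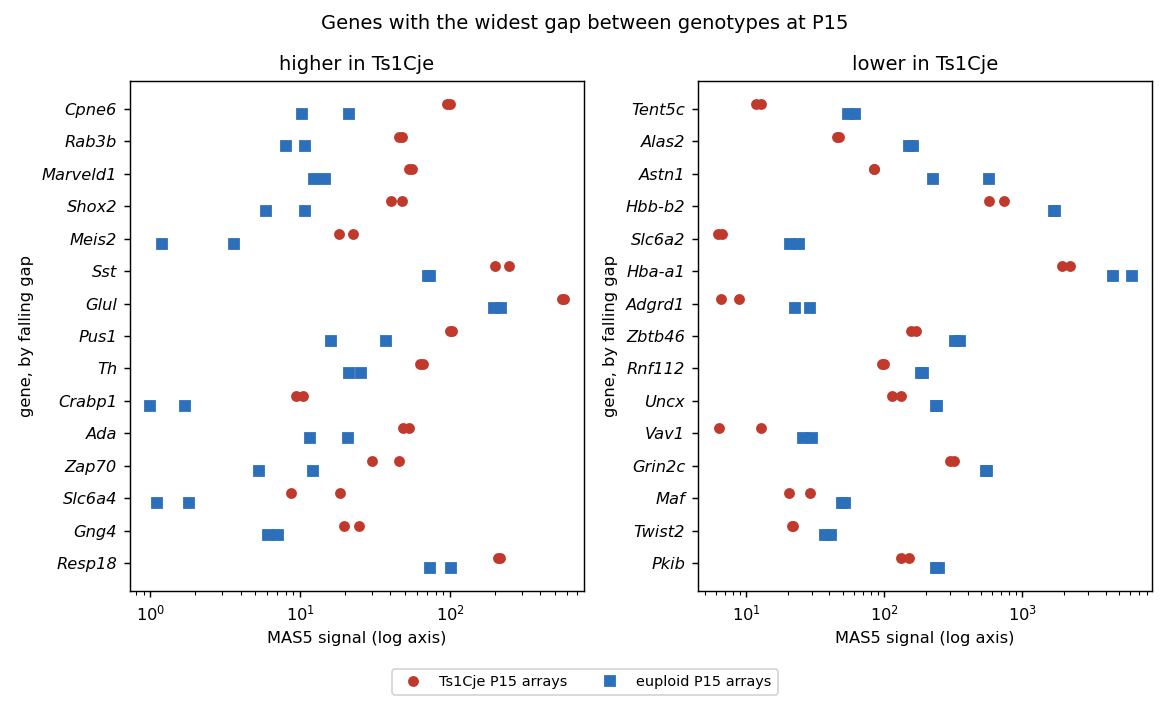
MAS5 signal (log axis) on each P15 array for the 15 genes higher (left) and the 15 lower (right) in Ts1Cje with the widest gap, Ts1Cje as red circles and euploid as blue squares. The fold between genotypes ranges over 2.38 to 5.22 in the higher and 1.68 to 4.08 in the lower panel.

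The start of the Sst gene is shown because Sst is a textbook target of cyclic AMP signalling. The 250 bases before the start are from RefSeq (GRCm38.p6, minus strand, chr16:23890845-23891094), written 5′ to 3′, and the capitals mark the palindromic cyclic AMP response element TGACGTCA, which begins 48 bases before the start.
Sst: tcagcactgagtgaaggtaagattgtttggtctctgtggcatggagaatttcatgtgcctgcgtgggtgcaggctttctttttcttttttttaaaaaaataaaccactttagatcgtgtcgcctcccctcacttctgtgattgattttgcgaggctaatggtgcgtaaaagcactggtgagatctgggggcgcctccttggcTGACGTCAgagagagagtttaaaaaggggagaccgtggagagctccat
This motif, searched on both strands, which read the same, was present in 508 of 32851 promoter windows of this length (1.55%). The match is a description of the sequence and no measurement of binding. Sst lies on chromosome 16, proximal to the trisomic segment.

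Some of the genes called higher are also markers of other brain regions. A list of 30 olfactory bulb genes, written after Dlx1, Th, Meis2 and others had been seen to be high, carries no test for that reason. Of its 18 genes on the array, 11 were called higher and 0 lower (background 4.35% and 2.38%), 16 had a positive difference and the median was 0.84. Over the 10 that passed the filter the median was 0.72, and 0.04 at a mean signal of at least 100. In 2 of the 18, Dlx1 and Eomes, both Ts1Cje P15 signals were above all other 10 arrays. In Th it was the euploid P15 pool that lay low, at 21.1 and 25.5, against 41.9 to 72.1 on the P0 and P30 arrays of both genotypes. At P0 the same 18 genes had a median of -0.12 with 2 called higher and 1 lower, and at P30 a median of 0.05 with 2 higher and 1 lower. Their summed signal was 3755 and 3977 in Ts1Cje, against 3509 and 3680 in euploid cerebellum. Omp, the olfactory marker protein of sensory neurons, had 19.6 and 31.9 in Ts1Cje against 5.7 and 6.9 in euploid cerebellum. Dlx5, a homeobox factor, had 12.5 and 12.2 against 1.9 and 1.6, while Dlx6, its genomic neighbour, lay below the pseudocount on all 4 arrays. Eomes, a T-box factor of glutamatergic lineages and of unipolar brush cells, had 108.3 and 86.1 against 58.6 and 39.2 (0.94), while its other measured probe set overlapped (0.49). Sall3, a zinc finger factor, had 33.6 and 29.8 against 14.2 and 10.8 (1.09). Penk, Calb2 and Reln, which the cerebellum also expresses, differed by 0.08, 0.04 and -0.11. The part of olfactory bulb tissue in these values was not tested.

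Meis2, Gng4, Sall3 and Sst were also high in newborn cerebellum of both genotypes. Meis2 had signals of 113.3 and 75.1 in the Ts1Cje P0 pool and 108.4 and 89.9 in the euploid P0 pool. Sst had 673 and 796.2 in the Ts1Cje P0 pool and 650.6 and 777.4 in the euploid P0 pool. In these genes the Ts1Cje P15 signals lay between those of the euploid P15 pool and those of the P0 pools. Dim signals of Omp and Dlx5 were also present at P0. Omp had 13.4 and 10.2 in the Ts1Cje P0 pool and 13.0 and 26.8 in the euploid P0 pool. Dlx5 had 7.0 and 3.8 in the Ts1Cje P0 pool and 10.1 and 14.7 in the euploid P0 pool. Dlx1, by contrast, was near background at P0.

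Lists of other neighbouring regions gave mixed counts. Of 15 measured brainstem and hindbrain genes, 5 were higher and 2 lower, beside 3.32% and 1.85% of all genes, with a median of 0.49 that was 0.22 over the 23 on the array with no filter. The neurofilament genes Nefm and Nefl, which encode the axonal cytoskeleton, were higher by 1.08 and 0.81, and Nefh was higher without overlap by 0.55, under 1.5-fold. Nefm had 159.3 and 138.4 in Ts1Cje against 76.3 and 60 in euploid cerebellum. Tac1, which encodes substance P, was higher by 0.88. Slc6a2, the noradrenaline transporter, and Glra1, a glycine receptor subunit, were lower by 1.28 and 0.62 on the log2 scale (-1.28 and -0.62). Of the 6 measured Hox genes, which pattern the hindbrain, 0 were called. Hoxa5 was higher without overlap by 0.57, under 1.5-fold, and Hoxa4 (-0.28), Hoxa2 (-0.01), Hoxb6 (0.09), Hoxb5 (0.18) and Hoxb8 (0.22) overlapped. Of 10 measured midbrain and colliculus genes, 4 were higher (Sst, Shox2, Tac1 and Meis2) and 0 lower, with a median of 0.46 that ranged over 0.19 to 1.09 between array pairs. Summed over every listed gene on the array, the brainstem signal was 1319 and 1272 in Ts1Cje against 937 and 1019 in euploid cerebellum, and the midbrain signal was 1271 and 1388 against 987 and 1104. Of the brainstem list, Hoxb4, Isl1 and Slc18a3 lay below the pseudocount on all 4 arrays, and of the midbrain list Lhx9 did. Of 11 measured genes of cerebral cortex, hippocampus and striatum, a list also written after some of its values were seen, 3 were higher (Tac1, Ptk2b and Cpne6) and 0 lower, with a median of 0.29 that was 0.16 without hybridisation 2 of Ts1Cje. Over its 19 genes on the array 5 were higher, and Camk2a, Crym and Six3, which mark forebrain neurons or their precursors, were below the pseudocount. Nrgn, a calmodulin-binding protein abundant in forebrain, had 15 and 21.6 in Ts1Cje against 2.3 and 2.6 in euploid cerebellum. Their part in the higher calls was not tested. Without the members of all lists of neighbouring and other tissues, an alternative chosen after seeing the data, 220 probe sets were higher and 139 lower.

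The 15 genes with the widest gap in the lower direction were 1.68-fold to 4.08-fold higher in euploid cerebellum, and several belong to red blood cells. Hba-a1, the alpha chain of adult haemoglobin, had signals of 1917 and 2202 in Ts1Cje against 4521 and 6182 in euploid cerebellum, a difference of -1.36. Hbb-b2, a beta chain, had 571 and 730 against 1702 and 1718 (-1.40). Alas2, the erythroid enzyme that starts haem synthesis, had 47.1 and 45.2 against 162.4 and 151.5 (-1.67). Klf1, an erythroid transcription factor, had 23.3 and 14.7 against 31 and 30 (-0.60). The globin genes have near-identical copies, so their probe sets cannot assign signal to one copy. In these bulk pools, fewer cells of a type and less RNA per cell cannot be told apart. The differences at P0 and P30 were -0.47 and -0.66 for Hba-a1, -0.68 and -1.38 for Hbb-b2, and -0.70 and -0.62 for Alas2, all in the same direction. Klf1 did not share this. Its difference at P15 departed by -0.86 from the mean of those at P0 and P30. As -0.86 is larger in size than -0.60, that mean was positive for Klf1. Of the 8 measured blood genes, 4 were lower and 1 higher, beside 1.85% and 3.32% of all genes, with a median of -0.28. Over the 12 listed genes on the array, with no filter, the median was -0.01 and 6 were positive. The higher one was S100a8, a protein of neutrophils, with 19.4 and 18.6 in Ts1Cje against 10.9 and 5.7 in euploid cerebellum. The other 3 were neither: Car2, which glia also express, differed by 0.04, Epor, the erythropoietin receptor, by 0.13, and Gata1, the erythroid transcription factor, by 0.60 with overlap. Summed over the 12 listed genes on the array, the blood signal was 3190 and 3662 in Ts1Cje against 7028 and 8706 in euploid cerebellum, and Car1 was below the pseudocount on all 4 arrays. How much blood each pool held was not tested.

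The promoters of erythroid genes among the lower ones are shown with their GATA and CACCC motifs. Each is the 250 bases before the gene's start from RefSeq (GRCm38.p6), 5′ to 3′: Hba-a1 on the plus strand at chr11:32283422-32283671, Alas2 on the plus strand at chrX:150547167-150547416, and Klf1 on the plus strand at chr8:84901732-84901981. Capitals mark GATA motifs (AGATAA or GATAAG, which can overlap) and the CACCC motif (CCACCC) on either strand. GATA motifs are bound by GATA1 and CACCC motifs by KLF1 in erythroid cells.
Hba-a1: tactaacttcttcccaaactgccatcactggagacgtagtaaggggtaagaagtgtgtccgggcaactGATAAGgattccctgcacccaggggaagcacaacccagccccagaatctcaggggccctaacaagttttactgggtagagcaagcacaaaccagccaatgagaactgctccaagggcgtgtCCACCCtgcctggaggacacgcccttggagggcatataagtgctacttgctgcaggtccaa
Alas2: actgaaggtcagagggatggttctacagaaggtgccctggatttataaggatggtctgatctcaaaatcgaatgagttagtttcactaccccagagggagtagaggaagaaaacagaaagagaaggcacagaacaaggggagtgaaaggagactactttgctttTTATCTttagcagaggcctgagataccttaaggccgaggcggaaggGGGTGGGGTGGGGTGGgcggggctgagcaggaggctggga
Klf1: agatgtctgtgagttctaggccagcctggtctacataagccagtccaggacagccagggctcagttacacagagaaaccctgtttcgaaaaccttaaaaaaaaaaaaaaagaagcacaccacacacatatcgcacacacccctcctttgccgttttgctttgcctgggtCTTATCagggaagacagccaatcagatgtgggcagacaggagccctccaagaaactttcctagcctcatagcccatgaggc
Hba-a1 had GATAAG beginning 182 bases and CCACCC 61 bases before the start. Alas2 had AGATAA on the opposite strand at 86 bases and 3 overlapping CCACCC matches on the opposite strand at 40, 35 and 30 bases before the start. Klf1 had GATAAG on the opposite strand at 81 bases before the start and no CCACCC match, so CCACCC was not shared by all. Only CCACCC was searched, so CACCC after another base, which the Klf1 and Hba-a1 windows also hold, is not marked. Among all 32851 windows, AGATAA was present in 9.99%, GATAAG in 6.55% and CCACCC in 28.1%. Hbb-b2 was not among the sequences.

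Other genes of the lower set act in neurons. Astn1, a neuronal protein needed for migration of granule cells along glia, had signals of 84.6 and 84.8 in Ts1Cje against 224.9 and 573 in euploid cerebellum (-2.03). The euploid hybridisations of Astn1 differed from each other by more than 2-fold, and both lay above the Ts1Cje ones. Grin2c, the NMDA receptor subunit of mature granule cells, had 299 and 318.8 against 541.5 and 550.5 (-0.81). Uncx, a homeobox factor, had 130.9 and 113.6 against 235.2 and 240.3 (-0.94). Rnf112, a brain ring finger protein, had 96 and 99.1 in Ts1Cje against 183.5 and 189.5 in euploid cerebellum (-0.90). Pkib, an inhibitor of protein kinase A, had 149.9 and 132.3 against 248.3 and 238 (-0.77). In both, the hybridisations of a genotype lay close together. Zbtb46, a zinc finger factor known from dendritic cells, had 168.6 and 157.1 against 355.3 and 323.2 (-1.04). The remaining genes were dimmer: Tent5c (-1.89), a poly(A) polymerase, Adgrd1 (-1.30), an adhesion receptor, Vav1 (-1.23), a signalling protein of blood cells, Maf (-0.92) and Twist2 (-0.75), both transcription factors, and Slc6a2. Vav1 and Slc6a2 each had other probe sets, below the filter, that differed by 0.26 or less in size. Of the 15 lower genes, 6 had a negative difference at both P0 and P30.

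Of 21 measured Purkinje cell genes, 16 had a negative difference and the median was -0.29, beside 0.04 at P0 and 0.09 at P30. It was -0.17 with no filter (23 genes) and -0.19 with the mean over a gene's probe sets. One gene, Lhx5, a factor of Purkinje cell development, was called lower (-0.64) and 0 were higher, beside 1.85% and 3.32% of all genes. Car8, a regulator of the Purkinje cell inositol trisphosphate receptor, had signals of 1873 and 1644 in Ts1Cje against 2910 and 2278 in euploid cerebellum (-0.55). Pcp2, a G protein regulator specific to Purkinje cells, had 587 and 671 against 864 and 955 (-0.53), and Calb1, a calcium buffer, had 949 and 1014 against 1295 and 1268 (-0.39). On these probe sets all 3 were lower without overlap and under 1.5-fold, where 18.9% of all genes were lower without overlap. The dimmer probe set of Pcp2 overlapped (-0.11). Pvalb, Gad1 and Ppp1r17, which Purkinje cells also express, differed by -0.15, 0.01 and 0.05. Pcp2, Calb1 and Ppp1r17 were picked after their values were seen and are examples only.

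Of 18 measured mature granule cell genes, 14 had a negative difference. Of the 18, 3 were called lower and 0 higher, beside 1.85% and 3.32% of all genes. The median of the list was -0.23, beside 0.10 at P0 and 0.10 at P30, and it was -0.15 without hybridisation 2 of the euploid pool. Neurod1, a factor of granule cell differentiation, had signals of 413 and 385 in Ts1Cje against 618 and 626 in euploid cerebellum (-0.63), and Pax6, a paired homeobox factor, had 180.4 and 149.2 against 304.9 and 270.9 (-0.79). Gabra6, the GABA receptor subunit of mature granule cells, was also chosen after its values were seen and had 1241 and 1132 against 1717 and 1639 (-0.50). The other measured probe set of Gabra6 was lower without overlap by a smaller difference (-0.20). Zic1, Nrep and Snap25 differed by -0.10 to -0.33. Of 10 measured genes of progenitors and Sonic hedgehog signalling, 0 were called and the median of -0.14 changed to 0.06 with no filter. Ptch1, the hedgehog receptor and target, overlapped with a difference of -0.33. A dimmer measured probe set of Ptch1 was higher without overlap by 0.12, so its probe sets disagree. Of 21 measured cell division genes, Mki67 (0.61) and Rrm2 (0.59) were higher, 0 were lower and the median was -0.01. The other measured probe set of Mki67 overlapped (0.41). Pcna, the replication clamp, and Stmn1, a microtubule regulator, differed by -0.29 and 0.32.

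Immature neuron genes had a median of 0.22 over 20 measured. Of the 20, 3 were higher (Nnat, Dpysl3 and Igfbpl1) and 0 lower, beside 3.32% and 1.85% of all genes. Single array pairs gave medians of 0.01 to 0.20, and leaving out hybridisation 1 of Ts1Cje or hybridisation 2 of the euploid pool gave 0.11 and 0.09. Dpysl3, a regulator of growth cone cytoskeleton, had signals of 102.8 and 80.3 in Ts1Cje against 48.4 and 40.3 in euploid cerebellum (0.97). Of 10 interneuron and Golgi cell genes, Sst and Npy (0.78), another inhibitory neuropeptide, were higher, 0 were lower, and the median was 0.03, with 0.00 under quantile normalization. Npy had signals of 92.7 and 94 in Ts1Cje and 44.2 and 61.8 in euploid cerebellum at P15, and 95.3 to 159.9 on the P0 and P30 arrays of both genotypes. Of 5 measured genes of unipolar brush cells and glutamatergic lineages, Eomes and Meis2 were higher and Pax6 was lower, with a median of 0.04.

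Of 17 synapse genes 0 were called, with a median of 0.07, and Vamp2, Snap25 and Dnm1 differed by 0.04, -0.23 and -0.20. Of 21 ion channel and receptor genes, Grin2c and Glra1 were lower and 0 higher, beside 1.85% and 3.32% of all genes, with a median of -0.24 that was -0.14 without hybridisation 1 of Ts1Cje. Kcna1, a potassium channel, had signals of 701 and 767 in Ts1Cje against 910 and 954.5 in euploid cerebellum (-0.34). Of 14 calcium signalling genes, Slc8a1, the sodium-calcium exchanger, was higher (0.61) and 0 were lower, with a median of -0.16 that ranged over -0.38 to 0.03 between array pairs. It was -0.01 without hybridisation 2 of Ts1Cje and -0.02 without hybridisation 1 of the euploid pool. Ppp3ca, a catalytic subunit of calcineurin, the target of Rcan1, had 958 and 945 against 1323 and 1083 (-0.33), lower without overlap and under 1.5-fold.

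**Figure D5:**
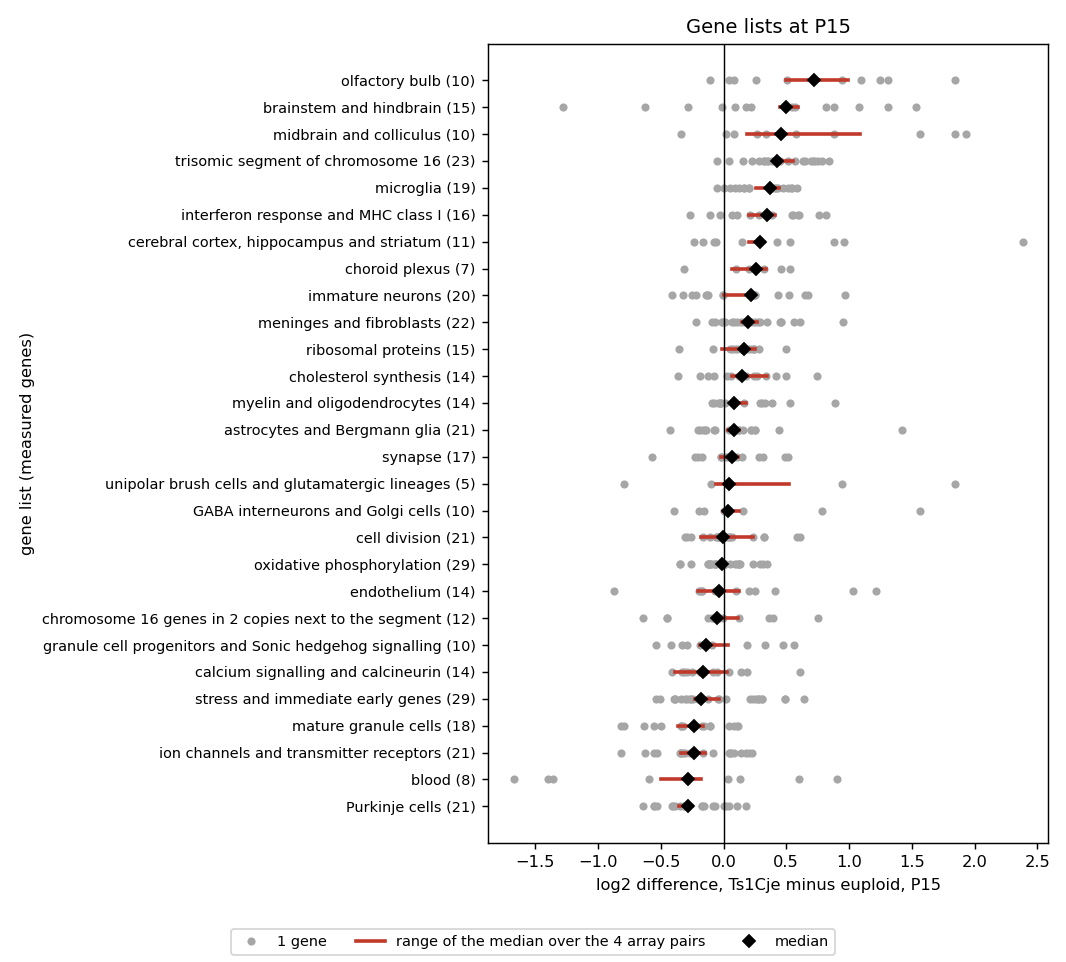
Log2 difference at P15 (Ts1Cje minus euploid) of each measured gene (grey) of the gene lists with at least 5 measured genes, with the list median (black diamond) and the range of the median over the 4 array pairs (red line). Olfactory bulb genes lie at the top with a median of 0.72 and Purkinje cell genes at the bottom with -0.29. The olfactory bulb list was written after some of its values were seen.

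Of 19 measured microglial genes, 0 were called and 18 had a positive difference, beside 50.5% of all genes. Their median was 0.37, beside -0.23 at P0 and 0.00 at P30, and it was 0.26 without hybridisation 1 of Ts1Cje. Over the 28 genes on the array, with no filter, the median was 0.25 and 2 dim ones, Cd53 (0.81) and Cd86 (1.02), were called higher. Other measured probe sets of the microglial genes went both ways. Sirpa (-0.34) and Ctsb (-0.21) were lower without overlap, and C1qb (-0.32) was lower with overlap. Cd83 (0.88, called higher) and Cst3 (0.40) were higher without overlap, and Laptm5 (0.60) with overlap. A further probe set each of Sirpa (0.04) and Ctsb (0.08) overlapped. Ctsd, a lysosomal protease, had signals of 539 and 575 in Ts1Cje against 403 and 394.5 in euploid cerebellum (0.48), while Cst3 and Ctsb, which other brain cells also express, differed by 0.16 and 0.01. Csf1r, the receptor on which microglia depend, was chosen after its values were seen and had 135.4 and 149.2 against 102.3 and 89.8 (0.55). Of 16 measured genes of the interferon response and MHC class I, 4 were higher and 0 lower, beside 3.32% and 1.85% of all genes. The median of the list was 0.35 (0.25 without hybridisation 1 of the euploid pool and 0.26 without that of Ts1Cje), beside -0.21 at P0 and 0.18 at P30. Ifitm3, an interferon-induced antiviral membrane protein, had 111.1 and 92.9 in Ts1Cje against 55.2 and 56.1 in euploid cerebellum (0.82). Psme1, a proteasome activator (0.76), Irf7, an interferon regulatory factor (0.60), and Gbp3, a guanylate-binding protein (0.59), were the other three. B2m and H2-D1, of the MHC class I complex, differed by 0.28 and 0.21, and Ly6e by -0.11. Over the 34 listed genes on the array the median was 0.15. Isg20, an interferon-induced nuclease below the filter, went the other way, with 3.5 and 3.2 in Ts1Cje against 36.8 and 23.5 in euploid cerebellum.

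Lists of other glia, vessels and membranes each held 0 to 3 called genes. Of 14 myelin genes, Mal, a myelin proteolipid, was higher (0.89) and 0 were lower, with a median of 0.09, while Mbp and Mobp differed by -0.03 and -0.02. Of 21 astrocyte and Bergmann glia genes, Glul was higher and 0 were lower, with a median of 0.08, and Apoe, Aldoc and Fabp7 differed by 0.10, -0.14 and -0.19. Of 14 endothelial genes, Vwf (1.03) and Edn1 (1.22) were higher and Flt1 (-0.88) was lower, beside 3.32% and 1.85% of all genes, with a median of -0.04. The other measured probe set of Flt1 overlapped and differed by -0.02. Vwf, the von Willebrand factor, had signals of 94.6 and 86.3 in Ts1Cje against 49.4 and 35.4 in euploid cerebellum. Of 7 choroid plexus genes 0 were called and 6 were positive, with a median of 0.25, and Ttr, its transthyretin, had 141.7 and 126 against 120.3 and 128.1 (0.10). Msx1 differed by -0.31, Calml4 by 0.20, Car14 by 0.25, Kl by 0.32, Igfbp2 by 0.46 and Folr1 by 0.53. Summed over the 11 listed genes on the array, the choroid plexus signal was 542 and 539 in Ts1Cje against 462 and 469 in euploid cerebellum, and Cldn2 was below the pseudocount. Of 22 genes of meninges and fibroblasts, Postn (0.95) and Islr (0.61) were higher and 0 were lower, and 17 were positive, with a median of 0.19 that was 0.09 at a mean signal of at least 100.

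Metabolic, ribosomal and stress genes had 2 calls in all. Of 29 oxidative phosphorylation genes 0 were called, with a median of -0.01, so the trisomic Atp5o differed by 0.76 beside subunits such as Atp5a1 at -0.07. Of 15 ribosomal protein genes 0 were called, and 13 had a positive difference, with a median of 0.17 that was 0.01 without hybridisation 2 of Ts1Cje. Of 14 cholesterol synthesis genes, Fdps, the farnesyl diphosphate synthase, was higher and 0 were lower, with a median of 0.15, beside -0.49 at P30. Fdps had signals of 437 and 508.5 in Ts1Cje against 272.5 and 285.6 in euploid cerebellum (0.75). The other measured probe set of Fdps was higher without overlap by 0.55, under 1.5-fold, so the call was lost on it. Of 29 stress and immediate early genes, Nr4a1, an activity-induced nuclear receptor, was higher (0.64) and 0 were lower, with a median of -0.18 that was -0.03 without hybridisation 2 of Ts1Cje and -0.09 without hybridisation 1 of the euploid pool. Hsp90aa1, a chaperone, had 1828 and 1842 against 2431 and 2110 (-0.30).

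A single test was open to the design: whether the genotype difference at P15 departed from the mean of the differences at P0 and P30. It was fitted with limma to the 6 pool means with 1 residual degree of freedom. With Benjamini-Hochberg adjustment, 0 of 7453 probe sets passed 0.05, and 685 (9.19%) had an unadjusted p under 0.05. Data of this size were simulated with normal noise and no genotype difference at P0 or P30. On them the test recovered 46.3% of departures of 1 on the log2 scale and 95.9% of those of 2. The smallest adjusted p was 0.0638, for Cpne6, whose departure was 2.62 ± 0.35 (SE, limma). Cpne6 passed in 7 of 13 alternatives. The next were Resp18, with a departure of 1.81 ± 0.28 (adjusted p = 0.0837, limma), and Cx3cl1, a neuronal chemokine, with 1.53 ± 0.25 (adjusted p = 0.0837, limma). Cx3cl1 had signals of 298 and 324.3 in Ts1Cje against 128.3 and 145.3 in euploid cerebellum at P15, a difference of 1.16, beside -0.35 at P0 and -0.38 at P30. In the negative direction the smallest p was that of Fut9, a fucosyltransferase that makes the Lewis x antigen, with a departure of -1.57 ± 0.28 (adjusted p = 0.102, limma). Fut9 had 197.9 and 139.4 in Ts1Cje against 310.9 and 271.5 in euploid cerebellum. Zbtb46 and Astn1 followed with departures of -1.35 and -1.40 (adjusted p = 0.155 and 0.156, limma). The genes named for their gap were chosen on P15 values that also enter this test, so it is no independent support for them. With no filter on signal, 2 probe sets passed, those of Dlx1 and Xist.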

How the data were processed

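The 12 arrays hold RNA of 6 pools, each hybridised 2 times. The deposited values are linear signal intensities, made by the authors with MAS5 per the submitters' processing notes; neither its version nor its parameters were given in the sources used here. After trimming 2% at each end, every array had a mean near 100, so no scaling was added. Values became log2(signal + 4.6), the 20th percentile of all values, and probe sets with a mean over 12 arrays under 20.1, the 40th percentile, were left out. Of the probe sets, 10855 had 1 symbol, 396 several and 1237 none; 10839 matched RefSeq (GRCm38.p6), and 0 changed. A gene is its probe set with the highest mean. Hybridisations were averaged within a pool.

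Named genes are the 15 of each direction with the widest gap between the nearest hybridisations, up to 6 called members and the 3 brightest of each of 28 gene lists, every measured gene of the trisomic, chromosome 12, blood, choroid plexus and sex-linked lists, and the 3 genes of each direction with the smallest p in the departure test. The members and lists were chosen with earlier results of these data known, and 2 further lists were written after values had been seen. The test used limma 3.58.1 in R 4.3.3 (lmFit, eBayes with trend, prior degrees of freedom 10.8), two-sided, on stage, genotype and genotype at P15. On simulated data 5.56% of its calls were false. Those data had normal noise and no genotype difference at P0 or P30, so the share may not hold for these arrays. The residual of the test is the change of the genotype difference between P0 and P30, combined with the limma prior. Its p-values do not measure the spread among pools of the same genotype and stage, which the design lacks. Tables and figures used python 3.11.15 and matplotlib 3.10.9. Alternatives changed the pseudocount, filter, scaling, fold, hybridisations used and probe sets per gene.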

Additional observations from a re-analysis of the deposited data

Results flagged for a closer look

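Xist averaged 91.6 and Dlx1 71.2 on the Ts1Cje P15 arrays, while both were near background in all other pools; both lie below the signal filter and so outside the counted probe sets.

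Among the 30 genes with the widest gaps at P15, 11 had both hybridisations of each genotype apart in the opposite direction at another stage, by at least 1.5-fold. Among the genes higher at P15 these were Rab3b (-0.59 at P0), Glul (-1.15 at P0), Pus1 (-1.09 at P0), Zap70 (-0.72 at P0), Sst (-1.24 at P30) and Resp18 (-0.77 at P30). Among the genes lower at P15 they were Slc6a2 (0.90 at P0), Uncx (0.86 at P0), Adgrd1 (0.72 at P30), Vav1 (0.88 at P30) and Twist2 (0.62 at P30). The share of all genes apart in this way at P0 or P30 was not counted, so the count of 11 has no background. These opposite differences were picked out without a test of their own, and the test of departure at P15 over all probe sets called 0 (limma), with 685 at an unadjusted p under 0.05.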

How the results depend on the processing

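The trisomic median of 0.43 stayed positive in every alternative, between 0.35 (no filter, 36 genes) and 0.48, and was 0.42 to 0.48 when single P15 hybridisations were left out. The counts of probe sets called moved more, against 239 higher and 145 lower. They were 140 higher and 75 lower with a pseudocount of 16, 536 and 298 with no filter, 89 and 56 at a mean signal of at least 100, and 54 and 19 at 2-fold. Leaving out 1 P15 hybridisation, which weakens the rule on overlap, gave 359 to 421 higher and 156 to 473 lower. A pseudocount of 1 (296 and 178), a filter on the P15 arrays (225 and 151) and quantile normalization (197 and 141) kept both within 1.5 times. So did leaving out markers of other tissues (220 and 139), but this removes listed genes only and could move the counts little. It does not show what other tissue adds to the counts. The departure test called 0, but 14 with a pseudocount of 1, 27 with one of 16, 2 with no filter and 1 with the filter on the P15 arrays. It called 5 to 18 when a P15 hybridisation was left out, and 0 to 2 when replicate 1 or replicate 2 of every pool was; the cause was not tested. It called 0 without the trend, at a mean signal of at least 100 and under quantile normalization.

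No label says what same-numbered hybridisations share. Their deviations correlated at -0.12 to 0.35 over 15 pairs of pools, with r over 0.1 in 7; the highest, 0.35, was that of the P15 pools. With the number as a replicate block, an alternative added after seeing the data, 254 probe sets were higher and 163 lower. Over all alternatives, 267 list medians and 245 gene differences stayed within their spread, and 51 and 31 moved. Medians near 0 changed sign with a setting for the cell division, endothelial, progenitor, oxidative phosphorylation, interneuron, unipolar brush cell, sex-linked and neighbouring chromosome 16 lists. Dim genes, with 1 pool per genotype, limit what the calls can show.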
